A study of Mus musculus with 6 samples.

Results

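The myosin heavy chain isoforms Myh7, Myh2, Myh1 and Myh4 were examined in the reloaded soleus, a postural calf muscle, of 6 mice. Per the labels the strain is 129/SV and the genotype WT. The members were the probes that the platform's annotation assigned to these 4 genes, and each gene had 1 probe. They made up 4 of the 203 named genes on a low-density DNA array of 223 probes. All 6 mice had undergone 7 days of hindlimb suspension, which takes the load off the hindlimb muscles, followed by 1 day of reloading. Per the labels' protocols, total RNA was isolated from frozen sections through the belly of the muscle, and each spot was read from a 32P label. All samples form 1 group without an unloaded or untreated muscle, so no effect of reloading could be tested, and no source used here gives sex or age. The samples are named by the numbers in their titles, 175, 176, 177, 178, 202 and 203. Each mouse was measured on a separate array, so variation between animals and variation between labellings or arrays cannot be told apart, and in whole muscle neither can fewer fibres of a type and less RNA per fibre.

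Myosin heavy chain is the motor protein of the thick filament, and the isoform that a fibre expresses largely sets its shortening speed. Myh7 encodes the slow isoform of type I fibres. Myh2, Myh1 and Myh4 encode the fast isoforms IIa, IIx and IIb, in rising order of speed. Fibres can carry more than 1 isoform, and mouse soleus is known as a mixed muscle of mainly type I and IIa fibres. Unloading is known to shift soleus towards faster isoforms.

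The fast genes are neighbours on mouse chromosome 11, in the order Myh2, Myh1 and Myh4 with the non-coding gene Myhas between the last pair, while Myh7 lies on chromosome 14. Their upstream sequences are shown because they set the 3 fast genes apart from Myh7 and, at 1 stretch, Myh1 and Myh4 from Myh2. All 4 genes were found by gene number in a RefSeq promoter table (GRCm38.p6), with 2 windows for Myh7 and 1 for each of the others. Only the 250 bases before the annotated start were read, and each sequence runs 5′ to 3′ on the gene's strand. In the fast genes the capitals mark, first, an AT-rich stretch of 15 bases and, second, a block of 20 bases that all 3 share. In Myh7 the capitals mark an E-box, CANNTG, the sequence that myogenic factors bind.
Myh2 (chr11:67170844-67170926, plus strand): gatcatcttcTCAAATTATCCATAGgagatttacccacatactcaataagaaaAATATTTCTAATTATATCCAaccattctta
Myh1 (chr11:67199876-67199966, plus strand): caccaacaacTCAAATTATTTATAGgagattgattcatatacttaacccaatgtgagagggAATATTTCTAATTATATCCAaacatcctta
Myh4 (chr11:67237615-67237678, plus strand): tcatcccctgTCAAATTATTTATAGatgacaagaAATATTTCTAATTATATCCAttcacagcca
Myh7 (chr14:54994687-54994772, minus strand): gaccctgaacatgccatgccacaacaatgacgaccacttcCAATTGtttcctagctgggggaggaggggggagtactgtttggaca

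The shared block, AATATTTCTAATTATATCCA, was the longest sequence common to the 3 fast windows. Searched on both strands, it occurred in 3 of 32851 promoter windows, those of Myh2, Myh1 and Myh4. It ended 110 bases before the annotated start of Myh2, 145 before that of Myh1 and 143 before that of Myh4. The longest run that Myh7 shared with a fast gene had 9 bases. The AT-rich stretch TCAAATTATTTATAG was the same in Myh1 and Myh4, and its only other match among all windows was Myh8, the perinatal isoform next to Myh4. The stretch was picked as the longest sequence that Myh1 and Myh4 share upstream of the block, so this pair matches by construction. In Myh2 the nearest stretch differed by T10C and T11C, counted from the 5′ end of the stretch, with the Myh1 base first. In Myh1 and Myh4 the stretch holds a match to the MEF2 consensus, which 2.92% of all windows hold, and which overlaps a match to TATAAA on the other strand. The Myh2 and Myh7 windows hold no MEF2 match. The E-box, on either strand, occurs in 66.2% of windows, in both Myh7 windows, in that of Myh4 and in neither of the other two. The Myh7 window shown holds a second E-box, CAGGTG, nearer the start and outside the printed bases. TATAAA occurs in 12.4% of windows, and MCAT, CATTCC, the site of Tead factors, in 12.6%. MCAT was found in Myh1, in Myh4 and in 1 of the 2 Myh7 windows, and not in Myh2, so it does not separate slow from fast. Within 32 bases of the annotated start TATAAA was found in Myh1 and Myh4. These matches are descriptions of the letters in these windows.

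Signals are given in per mille of the summed signal of 221 probes on the same array, a scale found from the values. The floor of an array, the 10th percentile of its probes, lay between 0.5 and 0.7 per mille, and a probe was called clear of it at 2 times the floor or more. With limma, 14 of 223 probes differed between samples 202 and 203 and samples 175 to 178, runs of title numbers whose meaning the labels do not give. That count was 0 without sample 202, 2 without 203, 5 without 176 and 8 without 175. Probe 1M, which is outside the total, gave 968 to 1645 per mille. Rn28s1, 28S ribosomal RNA, also outside the total, gave 79.0 per mille in sample 177 and 117 to 182 in the others. Of the 9 listed markers of muscle fibres 7 were measured, of which 4 are the isoforms themselves. The other 3, myoglobin (Mb), desmin (Des) and titin (Ttn), exceeded that limit in every mouse. Of the markers of other cells, Pecam1 of endothelium (1 of 4 measured markers) and Fabp4 of fat cells (1 of 2) were clear in all mice. The summed endothelial markers ranged from 4.4 to 7.2 per mille, the fat cell markers from 4.1 to 7.6 and the satellite cell markers Myf5 and Myod1 from 1.3 to 2.0. The only fibroblast marker measured, Pdgfra, lay at 0.8 to 1.5. Cd68 and the other macrophage markers, and those of smooth muscle and nerve, had no named probe.

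Myh7, the slow isoform, gave 63.8 per mille in sample 175, 83.7 in 176, 49.0 in 177, 78.9 in 178, 84.4 in 202 and 54.6 in 203. Samples 176, 178 and 202 lay close together at the top, and samples 177 and 203 were the lowest. The mean was 69.1 ± 15.4 per mille (SD, n = 6), and the highest mouse had 1.72 times the signal of the lowest. Every value was at least 70.0 times the floor of its array. On the log2 scale the SD over mice was 0.34, against a median of 0.29 over the 57 probes that cleared the floor in every mouse, among which it was the 20th widest.

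Myh2, the fast oxidative isoform IIa, gave 11.4 per mille in sample 175, 21.6 in 176, 23.3 in 177, 27.9 in 178, 32.8 in 202 and 20.7 in 203. Sample 175 was the lowest by a wide margin, since the next sample had 1.82 times its signal, and sample 202 was the highest. The mean was 23.0 ± 7.24 per mille (SD, n = 6), and highest and lowest mouse differed 2.88-fold. With an SD of 0.52 on the log2 scale Myh2 had the widest spread of the 4 isoforms and the 6th widest of the 57 probes. That width rested on 1 sample: without sample 175 the SD was 0.28.

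Myh1, the isoform IIx, gave 38.3 per mille in sample 175, 47.0 in 176, 26.9 in 177, 47.3 in 178, 35.6 in 202 and 49.5 in 203. Sample 177 was lowest, and samples 176, 178 and 203 were together at the top. The mean was 40.8 ± 8.75 per mille (SD, n = 6), with a 1.84-fold range and a log2 SD of 0.34, which was 0.21 without sample 177.

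Myh4, the fastest isoform IIb, gave 16.0 per mille in sample 175, 15.7 in 176, 7.2 in 177, 13.9 in 178, 11.9 in 202 and 14.5 in 203. Sample 177 lay far below the rest, the next sample having 1.65 times its signal. The mean was 13.2 ± 3.29 per mille (SD, n = 6), the range 2.22-fold and the log2 SD 0.43, the 9th widest of 57, which was 0.17 without sample 177. The lowest value was still 10.3 times the floor. Levels were not ranked between isoforms, because each probe has its own labelling and hybridization efficiency, and cross-hybridization between the closely related fast transcripts was not analysed here.

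**Figure D1:**
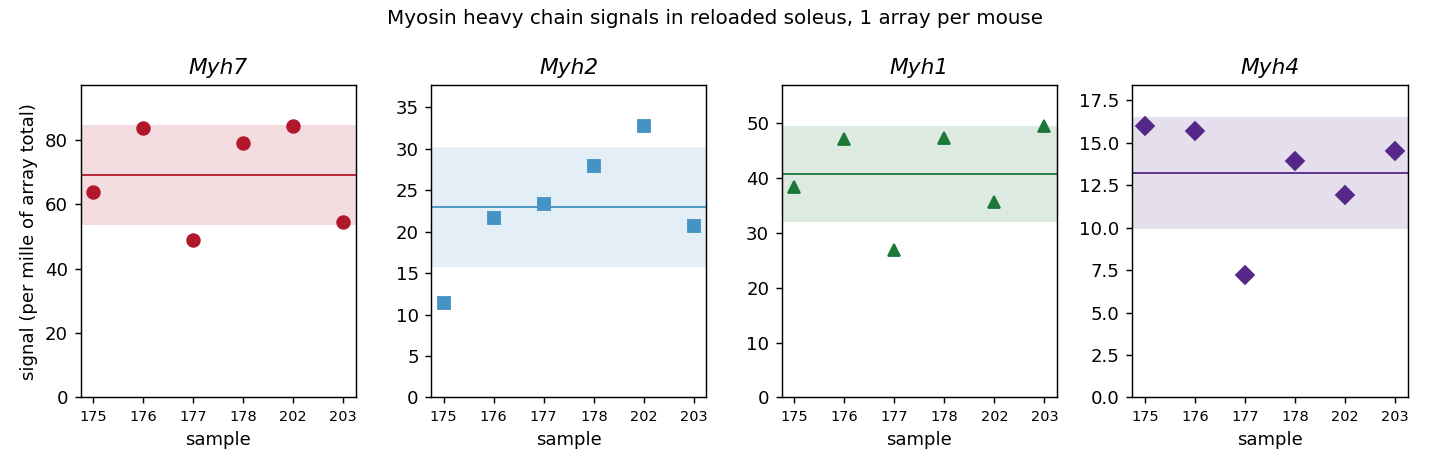
Signal of the slow isoform Myh7 and the fast isoforms Myh2, Myh1 and Myh4 in each of the 6 samples, in per mille of the array total, with an axis from 0 for each gene; the line is the mean and the band 1 SD (n = 6). Sample 177 is lowest for Myh7, Myh1 and Myh4 (49.0, 26.9 and 7.2 per mille), and sample 175 is lowest for Myh2 (11.4).

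The 3 isoforms lowest in sample 177 did not include Myh2, which at 23.3 per mille was there the 3rd highest of 6. Sample 177 was the lowest, or tied for it, in 14.0% of the 57 clear probes and the highest in 28.1%. Signals are shares of the array total, so these counts cannot show whether the array as a whole was weak. Rn28s1 was also lowest in this sample (79.0 per mille), whereas desmin (Des), the intermediate filament that links sarcomeres, was highest there at 49.7 per mille against 24.0 to 45.3 in the others. In sample 177 the summed fat cell markers were 7.4, the endothelial markers 5.4 and the fibroblast marker 1.4 per mille, inside the range of the other samples. The satellite cell markers summed to 2.0 per mille there, above the 1.3 to 1.9 of the others. Both lay near the floor, which was 0.7 per mille in sample 177: Myf5 was clear in no mouse and Myod1 in 1. The part of ribosomal RNA or of other cells in the low values was not tested.

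The ratio of 2 isoforms on the same array does not change with any factor that scales the whole array, so it was used to follow slow against fast expression from mouse to mouse. Ratios are given as log2 deviations from their mean over the 6 mice, because the size of a ratio between different probes cannot be read. Myh7 over Myh1 hardly moved in samples 175 to 178, at -0.02, 0.07, 0.11 and -0.02, and was 0.49 in sample 202 and -0.62 in sample 203. The 2 samples of the later title numbers therefore held the highest and the lowest value, 2.15-fold apart, with the other 4 between them. The SD was 0.36 over all 6 mice, 0.21 without sample 203, 0.066 in samples 175 to 178 and 0.19 after quantile normalization.

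Myh7 over Myh4 deviated by -0.41 in sample 175, 0.01 in 176, 0.36 in 177, 0.10 in 178, 0.42 in 202 and -0.49 in 203. Samples 202 and 203 again formed the ends, with sample 175 also low and sample 177 also high, and the range was 1.88-fold (SD 0.38, and 0.21 after quantile normalization). Myh7 over Myh2 followed another order, with deviations of 0.86 in sample 175, 0.33 in 176, -0.56 in 177, -0.13 in 178, -0.27 in 202 and -0.23 in 203. Here sample 175 was the most slow and sample 177 the least, and samples 202 and 203, which were opposite for the other fast isoforms, lay 0.04 apart. The range was 2.66-fold and the SD 0.51, which was 0.32 without sample 175.

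Which mouse appeared slowest thus depended on the fast isoform used: sample 175 was highest for Myh7 over Myh2 and second lowest for Myh7 over Myh4. A summary against the mean of the 3 fast log2 signals deviated by 0.14 in sample 175, 0.14 in 176, -0.03 in 177, -0.02 in 178, 0.21 in 202 and -0.45 in 203. By this summary sample 203 stood below all others and the other 5 lay within a narrow band. Its SD of 0.24 was smaller than that of each of its 3 parts, and it was 0.11 without sample 203 and 0.094 in samples 175 to 178. In sample 177 the value near 0 was made of a high ratio to Myh4 and a low ratio to Myh2. With the summed signal of the fast isoforms in place of the mean the SD was 0.25, and samples 203 and 202 were again the lowest and the highest.

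Among the fast isoforms, Myh1 and Myh4 kept the steadiest ratio. Their log2 ratio deviated by -0.38 in sample 175, -0.06 in 176, 0.26 in 177, 0.12 in 178, -0.06 in 202 and 0.13 in 203. Sample 175 was lowest, and the other 5 samples lay between -0.06 and 0.26. The SD was 0.23, 0.14 without sample 175 and 0.11 after quantile normalization. Over all 6 samples it was below that of either isoform alone (0.34 and 0.43). That rested on sample 177: without it the SD was 0.21 for the ratio, 0.21 for Myh1 alone and 0.17 for Myh4 alone. Myh1 and Myh4 are the pair that shares the unchanged AT-rich stretch shown above, which was picked for being common to them. Over the windows read, the longest shared run was 20 bases for this pair and 21 for Myh2 with either. Whether the sequence bears on the ratio was not tested.

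Myh2 did not move with them. Myh2 over Myh1 deviated by -0.88 in sample 175, -0.25 in 176, 0.66 in 177, 0.11 in 178, 0.75 in 202 and -0.39 in 203, a 3.10-fold range with an SD of 0.63. Myh2 over Myh4 deviated by -1.26 in sample 175, -0.31 in 176, 0.92 in 177, 0.23 in 178, 0.69 in 202 and -0.26 in 203, a 4.54-fold range with an SD of 0.79. In both ratios samples 177, 178 and 202 were above the mean and samples 175, 176 and 203 below it. Without sample 175 these SDs were 0.52 and 0.55. The 2 ratios share Myh2, so they are not separate observations of it, and the difference between these spreads and that of Myh1 over Myh4 was not tested.

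**Figure D2:**
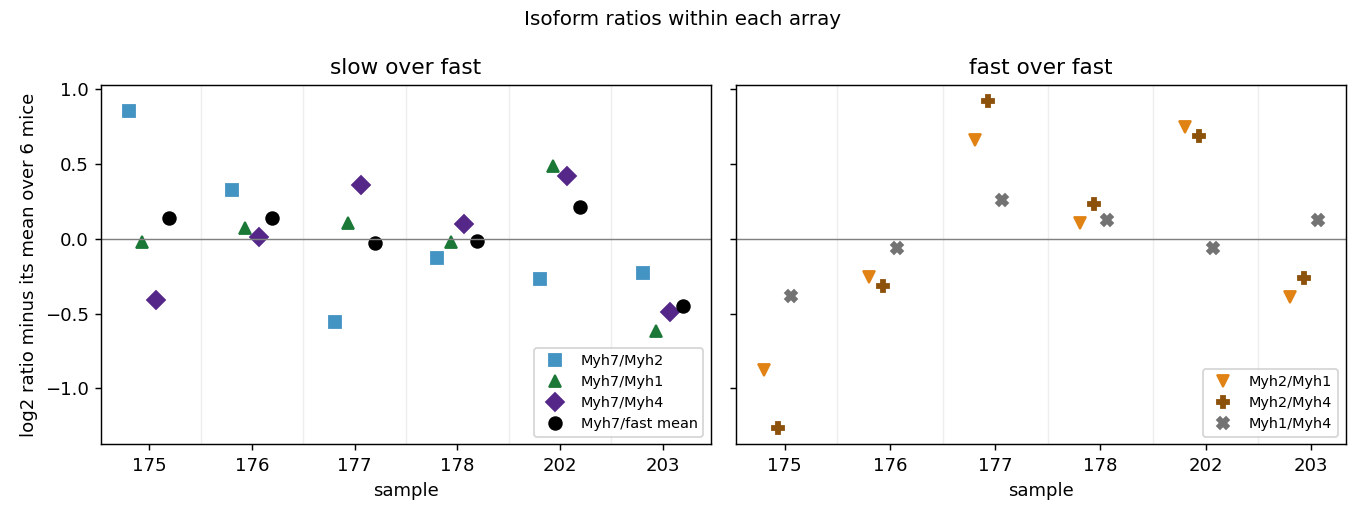
Log2 ratio of isoform pairs within each array, minus its mean over the 6 mice, for each sample; the left panel shows slow over fast with the summary against the mean of the 3 fast isoforms, and the right panel fast over fast. Myh1 over Myh4 stays between -0.38 and 0.26, while Myh2 over Myh4 runs from -1.26 in sample 175 to 0.92 in sample 177.

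To place these spreads, the SD of the log2 ratio was taken for all 1596 pairs of the 57 probes clear of the floor in every mouse. The median over pairs was 0.40, with quartiles at 0.30 and 0.54. Myh1 over Myh4 was steadier than most, as 12.0% of pairs had a smaller SD. Myh7 over Myh1 and Myh7 over Myh4 lay near the middle, with 38.4% and 44.5% of pairs below them. The ratios with Myh2 were wider, with 69.5% of pairs below Myh7 over Myh2, 83.4% below Myh2 over Myh1 and 92.2% below Myh2 over Myh4. Pairs share probes and arrays, so these shares are descriptions. The widest of the 6 isoform ratios were those of Myh2 to the other fast isoforms.

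**Figure D3:**
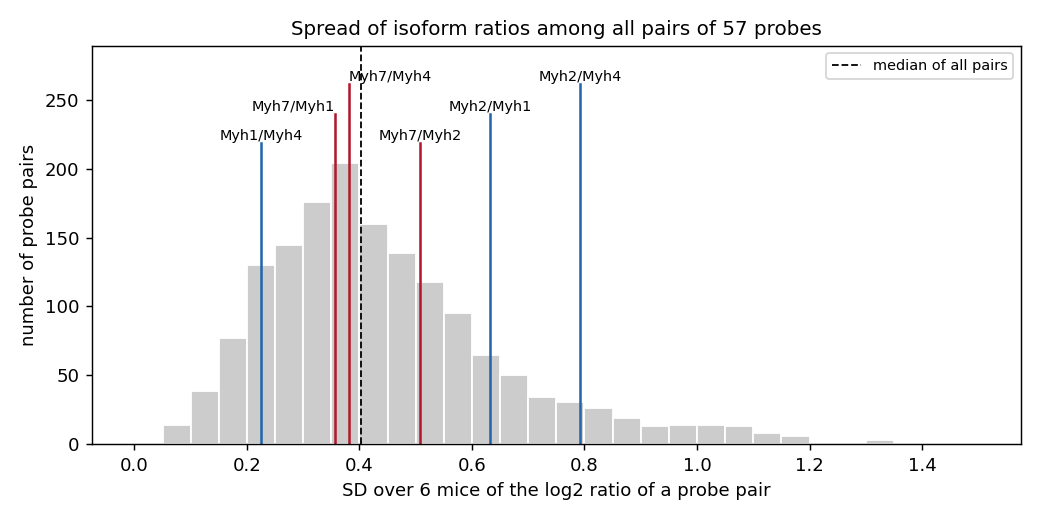
Histogram of the SD over 6 mice of the log2 ratio for all 1596 pairs of 57 probes, in bins of 0.05, with the 3 slow over fast pairs (red lines), the 3 fast over fast pairs (blue lines) and the median of all pairs (dashed line). Myh1 over Myh4 lies at 0.23 and Myh2 over Myh4 at 0.79, on either side of the median of 0.40.

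The probes with the steadiest ratio to each isoform, 3 for each among the named probes clear in every mouse, differed between isoforms. For Myh2 they were Cox6a2, the muscle form of a cytochrome c oxidase subunit (SD of the log2 ratio 0.23, n = 6), Ldhb, the lactate dehydrogenase chain of oxidative muscle (0.34), and the lipoprotein lipase Lpl (0.35). All 3 were below the SD of 0.52 that a probe with no variation at all would give. Without sample 175 that value was 0.28, and these ratios were not recomputed without it. Cox6a2 gave 34.7 per mille in sample 175, 45.8 in 176, 54.8 in 177, 61.2 in 178, 62.3 in 202 and 47.4 in 203. Ldhb gave 10.4, 13.4, 14.9, 14.2, 15.3 and 13.6 per mille in the same samples. Like Myh2, both were lowest in sample 175 and highest in sample 202.

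For Myh4 the steadiest ratios were those to Myh1 (0.23), to Rn28s1 (0.23) and to the fatty acid transporter Cd36 (0.25). Cd36 gave 5.8 per mille in sample 175, 6.1 in 176, 2.9 in 177, 3.7 in 178, 4.5 in 202 and 4.1 in 203. Like Myh4, Cd36 and Rn28s1 were lowest in sample 177. The SDs of these ratios lie below the 0.43 of a probe without variation. Without sample 177 that value was 0.17, and the ratios to Rn28s1 and Cd36 were not recomputed without it. For Myh1, Myh4 came first (0.23), followed by Cox8a (0.28), another cytochrome c oxidase subunit, and Pole2 (0.29), a DNA polymerase subunit.

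For Myh7 the steadiest ratios were those to Fabp3, the fatty acid binding protein of heart and muscle (0.27), Pole2 (0.29) and myoglobin (Mb), the muscle oxygen store (0.29). Cox8a and Pole2 hardly varied themselves, with log2 SDs of 0.11 and 0.12, so their ratios stay close to the 0.34 of Myh7 or Myh1 alone. Fabp3 lay low, at 1.3 to 2.4 per mille, where the step between values is 0.1. In the same ranking for Myh7, Myh1 stood at place 13, Myh4 at 20 and Myh2 at 33 of 54 probes. For Myh2, Myh7 stood at place 11, Myh1 at 30 and Myh4 at 49. No isoform other than Myh1 and Myh4 was among the 3 nearest of another.

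**Figure D4:**
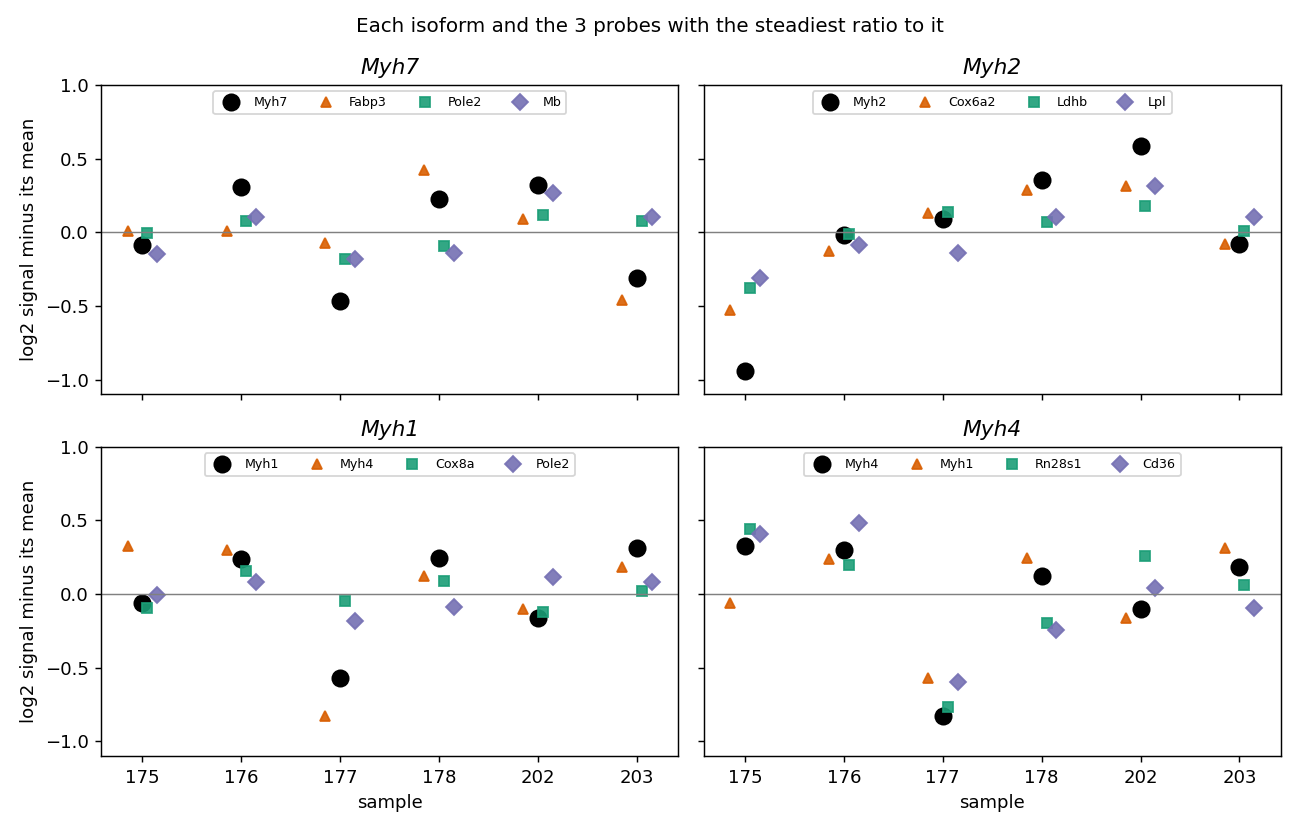
Log2 signal minus its mean over 6 mice for each isoform (black circles) and for the 3 probes with the steadiest ratio to it (coloured), by sample. Myh2 and Cox6a2 are both lowest in sample 175 and highest in sample 202, and Myh4, Rn28s1 and Cd36 are all lowest in sample 177.

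Other contractile genes could not be followed, since no probe was named for any of the 12 slow contractile genes, the 12 fast contractile genes other than the members, or the 7 other myosin heavy chains on the lists. Of the metabolic genes that accompany slow, oxidative fibres, all 10 listed were measured and 9 exceeded the floor limit in every mouse. These 9 had a median log2 SD of 0.12, below that of the 57 clear probes (0.29), so their ratio to an isoform mostly carries the isoform's own spread. The median SD of their log2 ratio was 0.37 to Myh7, 0.40 to Myh1, 0.47 to Myh4 and 0.52 to Myh2, against 0.45, 0.43, 0.53 and 0.61 over the other 56 clear probes. In sample 202, where Myh7 and Myh2 were highest, 6 of the 10 slow metabolic genes were at their highest, among them Mb at 70.3 per mille against 51.4 to 62.6 in the others, and 2, Car3 at 12.2 and Cox8a at 5.7 per mille, were at their lowest. Over the 57 clear probes 21.1% were at their highest there and 29.8% at or tied for their lowest. No test was made of these counts. Other groups were low in this sample too: the summed fat cell markers were at 4.1 per mille against 5.7 to 7.6. The satellite cell markers were at 1.3 against 1.6 to 2.0 and the fibroblast marker at 0.8 against 1.0 to 1.5. These markers lay near the floor, which was lowest in sample 202 at 0.5 per mille. Myf5 was clear in no mouse, Myod1 in 1 and Pdgfra in 2. Of the 4 endothelial markers 2, Kdr and Tek, were at or tied for their lowest, and both were clear in no mouse. The sum of all 4 was 4.9 per mille, inside the range of the other samples. The part of these cell types or of the floor in the counts was not tested.

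Of the 10 listed genes of fast, glycolytic fibres 4 were measured and 3, Aldoa, Gapdh and Pgk1, were clear in all mice. The median SD of their log2 ratio was 0.37 to Myh7, 0.43 to Myh1, 0.49 to Myh4 and 0.67 to Myh2. Aldoa, a glycolytic aldolase, gave 195 per mille in sample 175, 140 in 176, 143 in 177, 108 in 178, 148 in 202 and 131 in 203. It was highest in sample 175, where Myh4 was highest and Myh2 lowest. Aldoa was lowest in sample 178 and Myh4 in sample 177. The SD of the log2 ratio of Aldoa to Myh4 was 0.49, above the 0.43 of Myh4 alone. Pgk1, phosphoglycerate kinase, was also highest in that sample, at 5.0 per mille against 3.4 to 4.3. Gapdh, another glycolytic enzyme, was highest in sample 177, at 152 per mille with 142 in sample 175. Ldha, a lactate dehydrogenase chain, was highest in sample 176, but was clear of the floor in only 1 mouse. Over the 57 clear probes 19.3% were at their highest in sample 175.

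Of 18 listed regulators of fibre type 7 were measured, and Mef2c, Srf and Myf6 were clear in every mouse. Mef2c, a MEF2 factor, gave 4.8 per mille in sample 175, 5.4 in 176, 8.4 in 177, 6.1 in 178, 4.8 in 202 and 5.9 in 203. It was highest in sample 177, where 3 of the 4 isoforms were lowest. Its log2 ratio had an SD of 0.58 to Myh7, 0.54 to Myh2, 0.55 to Myh1 and 0.70 to Myh4, above the median over the clear probes for Myh7, Myh1 and Myh4 and below it for Myh2. In sample 202, 6 of the 7 measured regulators were at or tied for their lowest, against 29.8% of the 57 clear probes. Mef2a, Mef2c and Myod1 were tied there with another sample. Mef2a, Myog and Myf5 were clear in no mouse and Myod1 in 1, and the floor was lowest in sample 202, at 0.5 per mille. Of the scaffold genes, Ttn, the giant elastic protein titin, gave 17.8 to 26.0 per mille, lowest in sample 177 and highest in sample 175 as Myh4 was. The SD of its log2 ratio was 0.33 to Myh4, 0.34 to Myh1, 0.35 to Myh7 and 0.71 to Myh2. Without sample 177 the SD of Myh4 alone was 0.17, and the ratio of Ttn to Myh4 was not recomputed without it. For desmin the SD of the log2 ratio to Myh4 was 0.77.

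The isoforms were then compared between the runs of title numbers. Myh7 averaged 69.5 per mille in samples 202 and 203 and 68.9 in samples 175 to 178, a log2 difference of 0.01 ± 0.24 (SE, limma adjusted p = 0.975). Myh2 averaged 26.8 against 21.1 per mille, a difference of 0.38 ± 0.29 (SE, limma adjusted p = 0.407), and its 95% interval ran from -0.23 to 0.99. This difference was 0.05 without sample 202, 0.11 without 175 and 0.71 without 203. For Myh1 the difference was 0.11 ± 0.24 (limma adjusted p = 0.770) and for Myh4 0.06 ± 0.27 (limma adjusted p = 0.897). The runs overlapped for all 4 isoforms. The share of all 223 probes that overlapped was not counted, so this is not a result particular to the isoforms. Over all 223 probes the median log2 difference was -0.18. With each array centred on its median the differences were 0.10 for Myh7, 0.47 for Myh2, 0.19 for Myh1 and 0.15 for Myh4. None of the 4 passed an adjusted p of 0.05 in limma, and 0 of 4 had an unadjusted p under 0.05, against 6.28% of all 223 probes called and 51 probes with an unadjusted p under 0.05. No measured gene of the scaffold, regulator, slow metabolic and fast metabolic lists was called either. The 95% intervals ran from -0.49 to 0.51 for Myh7, from -0.39 to 0.61 for Myh1 and from -0.51 to 0.63 for Myh4.

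For the slow over fast ratios the design was too small for a test to make a call. The mean log2 ratio of samples 202 and 203 minus that of samples 175 to 178 was -0.37 for Myh7 over Myh2, -0.10 for Myh7 over Myh1, -0.05 for Myh7 over Myh4 and -0.17 against the mean of the fast isoforms. The exact permutation p-values (two-sided, 15 choices of 2 of 6 samples) were 0.533, 0.667, 0.867 and 0.533, each 0.867 after Benjamini-Hochberg adjustment over the 4 ratios. The smallest p that this design allows is 0.0667, so no difference could have passed 0.05 and these p-values do not show that the runs were alike. Without sample 203, which leaves sample 202 alone in its run, the differences for Myh7 over Myh1, over Myh4 and over the fast mean turned to 0.45, 0.41 and 0.16, as samples 202 and 203 lay on opposite sides. Taken within the runs, the SD was 0.53 for Myh7 over Myh2, 0.39 for Myh7 over Myh1 and 0.43 for Myh7 over Myh4. It was 0.25 for Myh1 over Myh4 and 0.87 for Myh2 over Myh4, each no smaller than over all 6 mice. The within-run SD has fewer degrees of freedom, which raises it unless the run means lie well apart. These SDs therefore do not show that the runs were alike.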

How the data were processed

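RNA of soleus from 6 mice was measured, 1 array each. Per the labels' protocols, 4 microgram of total RNA was reverse transcribed with gene specific primers and a 32P label. No source used here gives the scanner, the background treatment or the normalization. The signal the authors deposited is linear. It was multiplied to parts per mille, since 221 of 223 probes (all but 1M and 1O) summed to between 0.999 and 1.00 on every array, and log2 was taken without a pseudocount. None of the 1338 values is at or below 0. No spot replicates come with the deposited values; precision is limited by the number of arrays.

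Means, SDs and within-array log2 ratios were computed in Python 3.11.15. Title number runs were compared with limma 3.58.1 in R 4.3.3 (lmFit and eBayes, Benjamini-Hochberg adjustment over 223 probes, threshold 0.05) and, for ratios, by exact permutation. Both steps were run on simulated data with independent noise, without shared array effects or the scale to an array total. The outcome is not given here. The series text calls the samples biological replicates.

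Named genes were the 4 members, for each the 3 probes of other genes with the smallest SD of the log2 ratio among probes clear of the floor in all samples, and measured genes of the listed pathways and marker lists. Myhas, Myh8 and probe 1M were named after the data were seen. The members and lists were chosen with earlier results of these data known. Alternatives were median centring, quantile normalization, subtracting 50% or all of the floor, a pseudocount of 0.6 per mille, leaving out the dimmest 25% of probes, the summed fast signal, within-run SDs and leaving out each sample. Leaving out samples 202 and 203 together was chosen after seeing the data.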

Additional observations from a re-analysis of the deposited data

Results flagged for a closer look

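For each set of 6 values, the distance of the extreme mouse from its nearest neighbour was divided by the whole range and compared with the critical value of Dixon's test. Of 11 sets of values tested (4 isoforms and 7 ratios, which share the same arrays), 2 were singled out, and chance singles out about 1 in 20 separate sets. Myh4 was lowest in sample 177, at 7.2 per mille against 11.9 to 16.0 in the others, with a gap of 0.629 of the range on the log2 scale. The log2 ratio of Myh7 to the mean of the fast isoforms was lowest in sample 203, with a gap of 0.631 of the range. Both gaps lie just above the critical value. Myh2 in sample 175 was not singled out, with a gap of 0.564 of the range.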

How the results depend on the processing

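An SD was counted as moved when it changed by more than 1.5 times. Of 144 recomputed SDs 132 did not move. Among them were all those with median centring, with 50% or all of the floor subtracted, with a pseudocount and within the runs of title numbers. Many of these could hardly move. Median centring leaves a ratio unchanged, and the floor and pseudocount are small beside signals at least 10.3 times the floor. The 12 SDs that moved came from quantile normalization or from leaving out samples. Quantile normalization lowered the SD of Myh7 over Myh1 to 0.19, of Myh7 over Myh4 to 0.21 and of Myh1 over Myh4 to 0.11. Without samples 202 and 203, chosen after seeing the data, the SD was 0.066 for Myh7 over Myh1 and 0.094 for Myh7 over the fast mean. Leaving out each sample gave SDs of 0.28 to 0.58 for Myh2, 0.21 to 0.38 for Myh1, 0.17 to 0.48 for Myh4, 0.32 to 0.56 for Myh7 over Myh2, 0.21 to 0.40 for Myh7 over Myh1, 0.14 to 0.25 for Myh1 over Myh4 and 0.11 to 0.27 for Myh7 over the fast mean. The cause of these changes was not tested beyond the sample left out. All 32 recomputed mean signals stayed within 1 SD. Leaving out 1 of 6 samples or subtracting the floor cannot move these means that far, so this count does not show stability.

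Between the runs of title numbers, 0 to 20 probes were called when 1 sample was left out, with 0 without sample 202, 2 without sample 203, 8 without 175 and 5 without 176; leaving out 202 or 203 leaves a lone sample, assumed to vary like the others. The differences that changed sign did so when a sample was left out: from -0.30 to 0.32 for Myh7, -0.13 to 0.35 for Myh1, -0.21 to 0.20 for Myh4, -0.65 to 0.45 for Myh7 over Myh1, -0.51 to 0.41 for Myh7 over Myh4 and -0.50 to 0.16 for Myh7 over the fast mean. Without a change of sign, the range was 0.05 to 0.71 for Myh2 and -0.60 to -0.13 for Myh7 over Myh2. In limma no isoform passed an adjusted p of 0.05 under the alternatives run, the lowest being 0.228; the ratios could not pass by design. No paired analysis was possible because all samples form 1 group. The 4-decimal steps of the deposited values do not limit the isoforms, all at least 10.3 times the floor.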
